A study of Mus musculus with 96 samples.

Results

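Mitochondrial ribosomal protein genes were taken as the genes whose symbol is Mrpl or Mrps followed by a number and, in some, the letter a or b. The rule found 77 of the 40202 genes that each file lists. Transcripts were measured in 96 single-cell libraries of C10, a cultured mouse lung line that the labels give as alveolar type II epithelial cells, 48 from control cells with no treatment and 48 from cells given RO-3306 for 36 h, at 10 nM as labelled. In cell culture the compound is commonly used at micromolar doses, and whether the labelled dose is right was not tested. RO-3306 is sold as an inhibitor of CDK1, the kinase that drives entry into mitosis, and all cells were of the 1 line, with no genetic change named. The comparison asks how the level of these transcripts and their spread from cell to cell differed between treated and untreated cells. Cells with at least 50000 counts and 1000 genes were kept, 29 control and 37 RO-3306, with median totals of 1753427 and 2234309 counts (59979 to 6457215 and 295005 to 5321880).

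Mitochondria keep their own ribosome. It translates the few mRNAs of mitochondrial DNA, which code for core subunits of the respiratory chain and of ATP synthase. Its rRNAs are made inside the organelle, while its proteins are coded in the nucleus, made in the cytosol and imported. The large subunit joins amino acids and holds the exit tunnel, and the small subunit reads the mRNA. Many of the proteins have a counterpart in bacteria, and the others are particular to mitochondria. By their place in the assembled ribosome, 51 of the 77 genes code for proteins of the large subunit and 25 for proteins of the small subunit. Mrps18a and Mrps30 were counted with the large subunit despite their symbols. Mrps36 belongs to neither, since its protein is a subunit of the 2-oxoglutarate dehydrogenase complex.

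Levels are in CPM: the counts of all kept cells of a treatment were added up and scaled to a total of 1e6. A log2 ratio is that of the RO-3306 level to the control level after 1 CPM was added to each. No culture, dish or passage is named, so each treatment was 1 sample, no test between treatments was possible, and intervals (95%) cover counting error only. A letter, A to D, stands in every title of either group, and its meaning is not given. A gene is called here when its mean is at least 5 CPM, the groups differ at least 1.5-fold and the sign is the same in all 4 lettered sets, which are not replicates. A call is a size rule, not a test.

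Of the 77 genes, 75 reached 5 CPM. Mrps18a stood just under it, at 4.17 CPM in control and 4.65 in RO-3306 cells, and 38.4% of its span lies under Rsph9. Mrpl33 had no count in any kept cell, which allows up to 0.0454 CPM in control and 0.0323 in RO-3306 cells (3 counts of the total). Its whole span lies inside that of Gm38424, and by the counting used, reads over 2 gene spans were left out, so the 0 does not show that the gene is silent. Over 10% of the span of 8 other members also lies under another gene, among them Mrps6 (54.1% under Slc5a3), Mrpl43 (54.6% under Twnk), Mrpl14 (31.3% under Tmem63b), Mrpl18 (22.6%), Mrps7 (16.8%) and Mrpl24 (16%), and their levels are uncertain for that reason. For 14 members, over 50% of the cells that had counts held a fraction of a read, which comes from reads placed at several sites. Mrpl23, Mrps10, Mrpl14, Mrpl18, Mrpl45, Mrps18b and Mrps36 are among these.

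RefSeq promoter windows, from 250 bases before to 50 after the start of a gene, were found for 68 of the 77 members (74 windows, GRCm38.p6). Genes of this family are commonly described as carrying sites for NRF1, ETS-family factors and YY1, and the windows were searched for the letters of these motifs. Stretches before the start are shown for the 2 called members with the highest and the 2 with the lowest ratios, because the results on single members turn on them. Each is the longest part of the 250 bases that GENCODE M21 annotates as no UTR. They are Mrpl24 (plus strand, chr3:87919294-87919505), Mrpl23 (plus strand, chr7:142532782-142533011), Mrps30 (minus strand, chr13:118387253-118387472) and Mrpl50 (minus strand, chr4:49521094-49521175). None of these 4 stretches holds the letters of the 3 motifs, so they are in lower case throughout.
Mrpl24: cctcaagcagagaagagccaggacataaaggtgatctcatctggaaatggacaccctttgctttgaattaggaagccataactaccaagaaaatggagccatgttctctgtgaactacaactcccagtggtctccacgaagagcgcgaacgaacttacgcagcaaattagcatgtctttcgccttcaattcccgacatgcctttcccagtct
Mrpl23: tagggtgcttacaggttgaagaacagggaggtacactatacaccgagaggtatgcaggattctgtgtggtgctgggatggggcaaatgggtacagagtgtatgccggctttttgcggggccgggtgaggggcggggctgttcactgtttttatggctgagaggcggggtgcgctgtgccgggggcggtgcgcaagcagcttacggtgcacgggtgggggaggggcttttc
Mrps30: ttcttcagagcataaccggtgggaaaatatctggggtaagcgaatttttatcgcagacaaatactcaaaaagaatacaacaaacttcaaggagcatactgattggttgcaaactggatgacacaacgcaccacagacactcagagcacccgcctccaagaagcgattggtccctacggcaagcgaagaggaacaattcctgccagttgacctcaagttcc
Mrpl50: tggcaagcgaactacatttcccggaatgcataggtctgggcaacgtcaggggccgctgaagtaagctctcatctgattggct

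The other 3 stretches show what a match looks like, with the motif in capitals. Mrps21 (minus strand, chr3:95871520-95871764) and Mrpl12 (plus strand, chr11:120484387-120484612) hold the same NRF1 letters, and their ratios had opposite signs. Mrpl58 (plus strand, chr11:115403502-115403751) holds the ETS letters close to its start, and its ratio was near 1.
Mrps21: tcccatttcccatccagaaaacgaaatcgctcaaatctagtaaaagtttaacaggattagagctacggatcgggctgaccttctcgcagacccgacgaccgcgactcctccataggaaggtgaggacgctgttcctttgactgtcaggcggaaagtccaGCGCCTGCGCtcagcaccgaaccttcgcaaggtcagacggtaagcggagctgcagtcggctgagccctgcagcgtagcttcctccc
Mrpl12: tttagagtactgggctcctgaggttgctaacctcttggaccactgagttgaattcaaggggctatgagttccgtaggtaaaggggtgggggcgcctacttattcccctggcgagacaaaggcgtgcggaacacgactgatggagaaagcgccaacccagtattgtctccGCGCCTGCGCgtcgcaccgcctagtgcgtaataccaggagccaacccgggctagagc
Mrpl58: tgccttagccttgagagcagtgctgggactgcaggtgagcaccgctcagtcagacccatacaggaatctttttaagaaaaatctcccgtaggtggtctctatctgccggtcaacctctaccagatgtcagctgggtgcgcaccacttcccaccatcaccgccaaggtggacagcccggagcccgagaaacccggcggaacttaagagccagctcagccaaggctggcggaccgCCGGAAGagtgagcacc

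GCGC, any base and TGCGC (NRF1), read on either strand, was in 17.6% of the 74 member windows, 4.6% of all 32851 windows and 10.5% of the 9702 windows of genes of at least 5 CPM. CCGGAAG (ETS) was in 33.8%, 8.86% and 19.2% of these, and AA, any base and ATGGCGG (YY1) in 9.46%, 1.36% and 3.7%. Motifs were counted separately, also where they overlap. At least 1 of the 3 was in 51.4% of member windows, 13.5% of all windows and 30% of those of genes of at least 5 CPM. GGGCGG, the SP/KLF letters, was in 51.4% of member windows, more than the 35.7% of all windows and less than the 63.5% of those of genes of at least 5 CPM. TATAAA was in 6.76%, 13.6% and 7.06% of these. Members with and without a motif overlapped in ratio. The median log2 ratio was 0.18 in the 13 members with the NRF1 letters and 0.11 in the 53 without, 0.11 and 0.18 for ETS (23 and 43 members), and -0.11 and 0.15 for YY1 (6 and 60 members). Mrps21 and Mrpl12, which share the NRF1 letters, had log2 ratios of 0.48 and -0.32. The Mrps21 window also held the ETS letters, outside the stretch shown, and that of Mrpl12 did not. Of the 7 members called higher, 2 (Mrpl14 and Mrpl37) had any of the 3 motifs in the window, as did 1 of the 2 called lower (Mrps30, outside the stretch shown) and 33 of 57 not called. A match is a description of letters and does not show binding.

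Summed over the 77 members, the level was 12115 CPM in control (12089 to 12142) and 13109 CPM in RO-3306 cells (13085 to 13132), a ratio of 1.08 (1.08 to 1.09). The direction was not the same in the 4 sets. In set A the sum was 13162 CPM in control and 12562 in RO-3306, and in sets B, C and D it was higher in RO-3306, at 12585 against 11294, 13742 against 12659 and 13203 against 10892. Over cells, the lowest, median and highest control values were 5602, 12329 and 14761 CPM. In RO-3306 cells they were 3103, 12962 and 17797 CPM. The groups overlapped through most of their range, with 7 of 37 RO-3306 cells above the highest control cell and 26 above the control median.

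**Figure D1:**
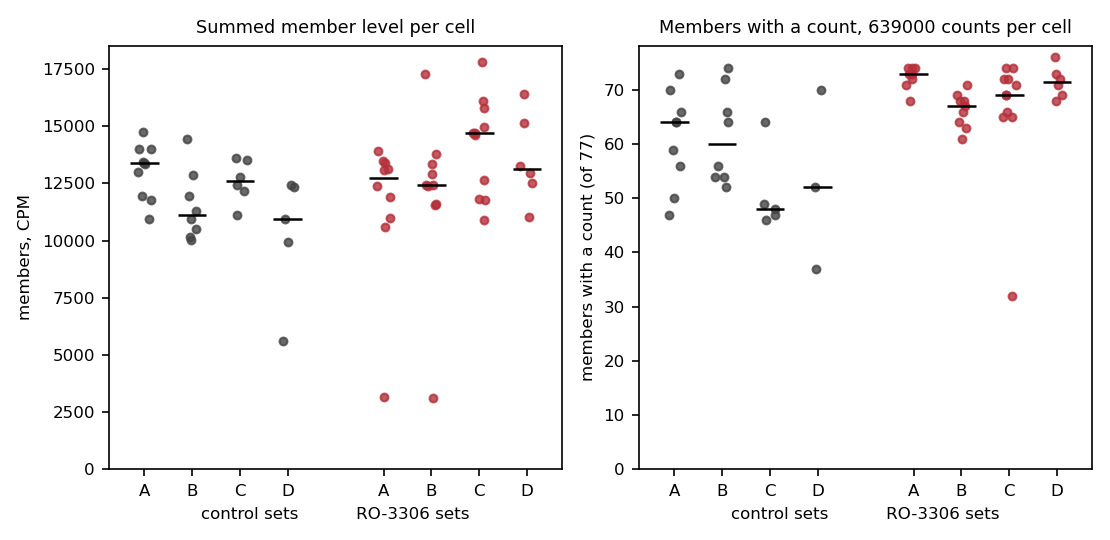
Each point is 1 kept cell, by lettered set, with the set median as a bar. On the left, the summed member level in CPM, where 2 RO-3306 cells and 1 control cell lie far below the others. On the right, members with a count after each cell was thinned to 639000 counts, with set medians of 48 to 64 in control and 67 to 73 in RO-3306.

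The 2 lowest cells of the RO-3306 group also stood apart in mitochondrially encoded transcripts. The cell titled TrtdB3 had 3103 CPM of members and 56.0% mitochondrially encoded counts, and 47% of its member counts came from Mrpl16 alone. The cell titled TrtdA11 had 3168 CPM, 18.1% mitochondrially encoded counts and 20 members with a count. Without cells above 10% mitochondrially encoded counts, the log2 ratio of the sums was 0.12, beside 0.11 with them. The lowest control cell, CtrlD10, was the shallowest kept (59979 counts) and had the lowest mitochondrially encoded share of the control cells, 1.34%.

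Single members lay close to 0. The median log2 ratio over the 75 members of at least 5 CPM was 0.11 (quartiles -0.21 and 0.38), against -0.22 (-0.98 and 0.43) over all 9374 such genes. By set, the members' median was -0.06, 0.13, 0.23 and 0.41 in A, B, C and D, and that of all genes was -0.08, -0.26, 0.41 and 0.24, so the members' median was above that of all genes in 3 sets and below it in set C. Within 1.5-fold lay 61 of 75 members (81.3%), against 43.3% of all genes. Members stood at 43 above and 32 below 0, and all genes at 3848 above and 5526 below. TMM and DESeq2 factors raise every RO-3306 value, of members and other genes alike, by 0.21 and 0.24 on the log2 scale. With these factors 56 and 58 members (74.7% and 77.3%) were above 0, beside 49.1% and 50.3% of all genes. The members' median was 0.34 above that of all genes under both, beside 0.33 with total counts. Each factor multiplies the RO-3306 level of all genes alike, so this gap could hardly change and its likeness under the factors checks nothing. Without set C the members' median was -0.02.

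**Figure D2:**
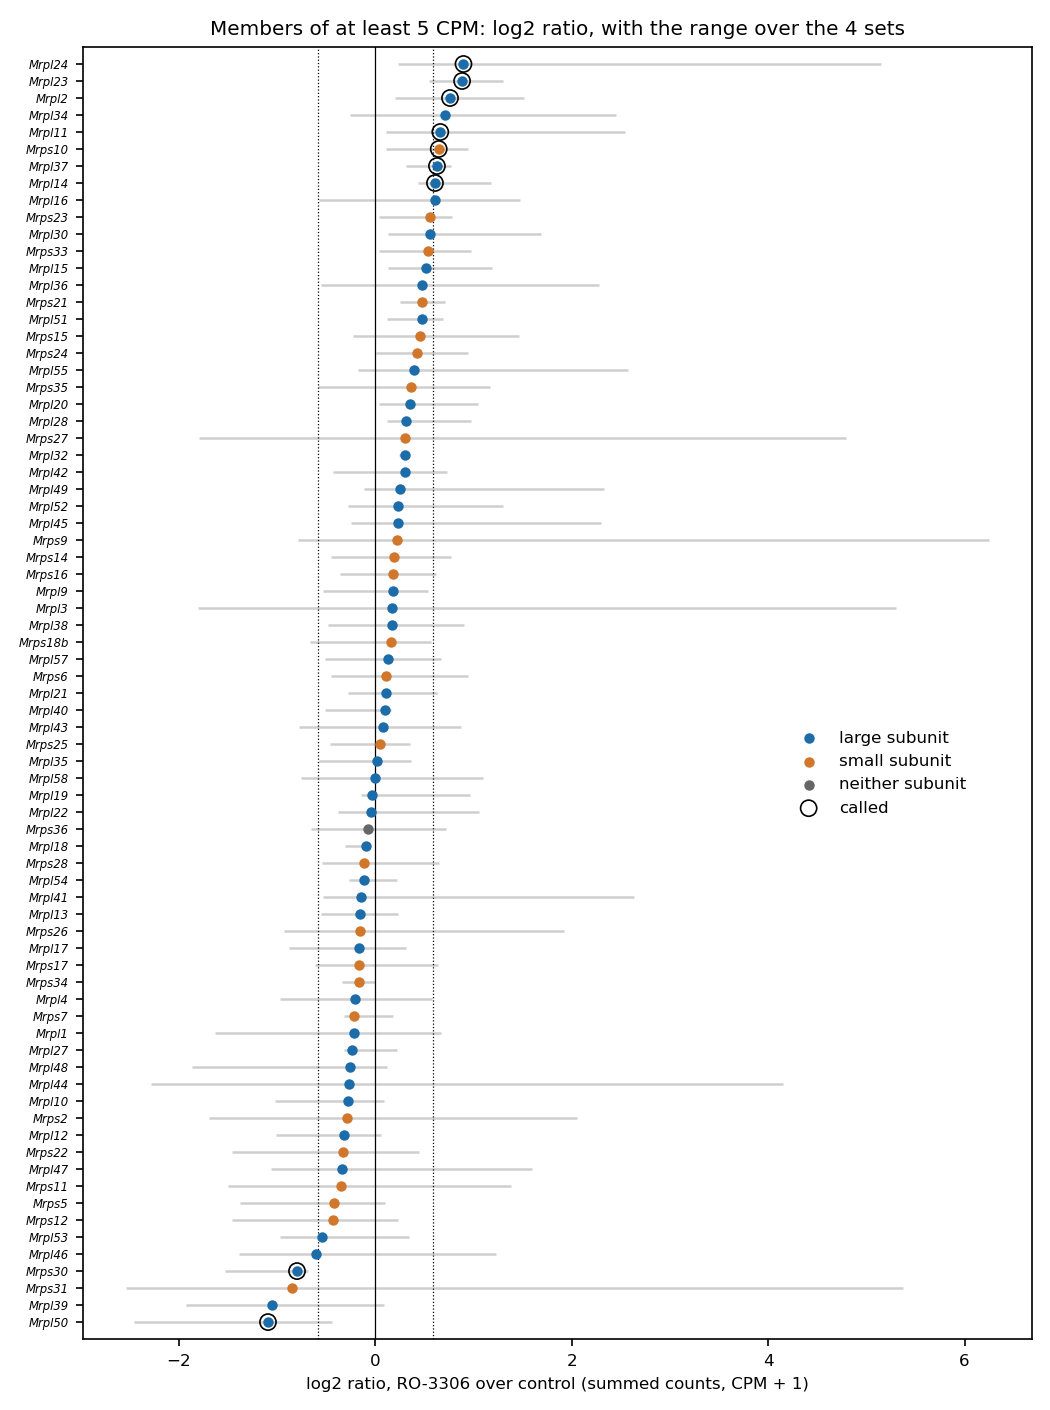
Dots give the log2 ratio of RO-3306 over control for each of the 75 members of at least 5 CPM, colored by subunit, and grey lines the range over the 4 sets. Dotted lines mark 1.5-fold, and circles the 7 members called higher and the 2 called lower. The grey lines cross 0 for 54 members.

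The members' mRNAs are short, with a median of 1332 nt against 2898 nt over all genes, and when all genes are cut into 10 equal bins by length, 50 of 75 members fall in the 3 shortest bins. Length moved with the ratio over all genes. The median log2 ratio of all genes was 0.26 in the shortest bin, which holds 31 members with a median of 0.30, and -0.90 in the longest, which holds 1. Against 1357 genes of 50 to 500 CPM with mRNAs up to 2000 nt, the 43 members in that range had nearly the same median, 0.17 beside 0.16. They differed more in width: 81.4% of these members and 65.4% of these genes lay within 1.5-fold. The quartiles were -0.16 and 0.48 for the members and -0.24 and 0.57 for the genes. No test of either difference was made.

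**Figure D3:**
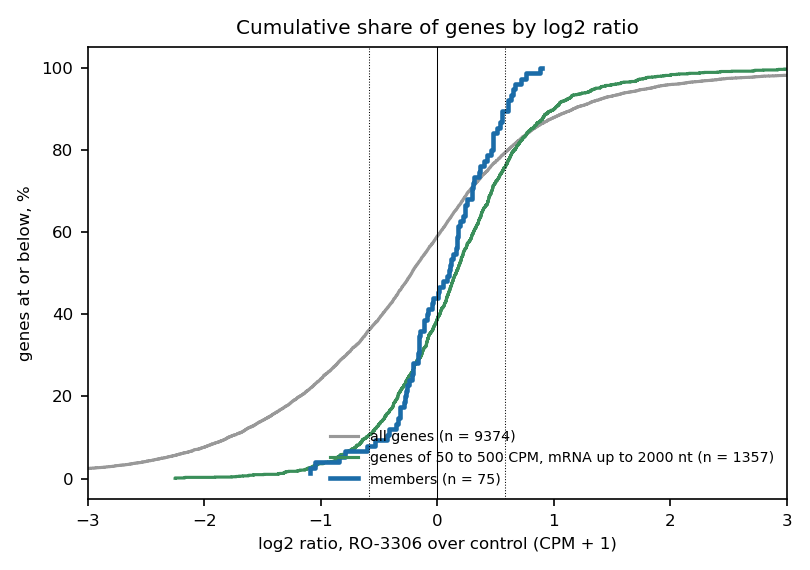
Cumulative share of genes (y axis, %) by log2 ratio (x axis, drawn from -3 to 3) for all genes of at least 5 CPM, for genes of 50 to 500 CPM with mRNAs up to 2000 nt, and for the members. Of the 3 curves the members' is the steepest, and it runs near that of the short genes below 0 and above it beyond 0.

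Called higher were 7 of 75 members (9.33%), against 10.6% of all genes, and called lower were 2 (2.67%), against 8.51%. The share called higher is close to that of all genes. Past 1.5-fold in the sum, whatever the sets, were 9 higher and 5 lower, where 20.6% of all genes were higher and 36.2% lower. Counting any size, the sign was above 0 in all 4 sets for 17 members (22.7%, against 13.1% of all genes) and below 0 for 4 (5.33%, against 10.3%). These calls shift with the sets, also because only 3 sets must then share a sign. Without set A, 16 members (21.3%) were called higher and 4 (5.33%) lower, against 14.9% and 12.7% of all genes, and without set D 5 (6.67%) were called lower, against 14% of all genes. With TMM factors 15 members (20%) were called higher, against 14% of all genes, and with DESeq2 factors 17 (22.7%), against 14.6%. Relative to genes of like mRNA length, 3 of the 7 stayed called higher (Mrpl24, Mrpl23 and Mrpl11) and 1 of the 2 lower (Mrpl50). As a mean over cells, Mrps10, Mrpl14 and Mrps30 were no longer called.

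Of the 7 members called higher, 6 belong to the large subunit, which has 49 of the 75 members of at least 5 CPM. These are 12.2% of the large-subunit members, beside 4% of the 25 of the small subunit and 10.6% of all genes. Mrpl24 (chr3:87825438-87830757 on GRCm39, plus strand), a bacterial-type protein of the large subunit, was at 17.7 CPM in untreated cells (16.7 to 18.7) and 33.9 CPM in treated ones (32.7 to 35.1), 1.91-fold higher (1.79 to 2.05). Per cell it ran from 0 through a median of 0 to 60.8 CPM in control and from 0 through 25.6 to 150 CPM in RO-3306. The groups overlapped, but it was found in 13 of 29 untreated and 32 of 37 treated cells. Its ratio varied widely by set, from 0.24 in A to 5.15 in C on the log2 scale. Mrpl23 (chr7:142086204-142094484, plus strand), which lines the rim of the exit tunnel, was at 46.9 and 87.5 CPM, 1.87-fold higher (1.79 to 1.94). Its cells ran from 0 through a median of 39.7 to 152 CPM in control and from 0 through 78.5 to 219 CPM in RO-3306, and its 4 set ratios, 0.75, 0.65, 0.55 and 1.31, lay closer together than those of Mrpl24.

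Mrpl2, a core protein near the catalytic centre, was at 179 and 305 CPM (control, then RO-3306, here and below), 1.70-fold higher (1.66 to 1.74). Its median cell had 107 and 298 CPM, and its highest 557 and 697 CPM. Mrpl11, at the base of the stalk where translation factors dock, was at 90.4 and 144 CPM, 1.59-fold higher (1.54 to 1.64). It was found in 18 of 29 and 37 of 37 cells, with medians of 25.9 and 127 CPM. Mrpl14, on the face that meets the small subunit, was at 304 and 464 CPM (1.53-fold, 1.5 to 1.55), and every kept cell had a count. Mrpl37, a large-subunit protein particular to mitochondria, was at 47.3 and 73.8 CPM (1.56-fold, 1.49 to 1.63), with median cells at 8.54 and 52.8 CPM. Mrps10 was the 1 small-subunit member called higher, at 166 and 260 CPM (1.57-fold, 1.53 to 1.61). In all 7 the ranges of control and RO-3306 cells overlapped.

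Some calls turned on 1 cell. Without the RO-3306 cell with the most counts of the gene, which lowers the ratio by construction, the log2 ratio was 0.57 for Mrpl11, 0.51 for Mrpl37 and 0.58 for Mrpl14, each under the 0.585 of 1.5-fold. Without the top cell of each group it was 0.73 for Mrpl11 and 0.76 for Mrpl37, past 1.5-fold, and 0.57 for Mrpl14. Mrps23, a mitochondria-particular protein of the small subunit, came next under the rule for named genes, at 91.0 and 135 CPM with a log2 ratio of 0.56, just inside 1.5-fold and above 0 in all sets.

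The 2 members called lower code for large-subunit proteins particular to mitochondria. They are 4.08% of the large-subunit members of at least 5 CPM, against 8.51% of all genes. Mrpl50 (chr4:49512597-49521083, minus strand) was at 149 CPM (147 to 152) and 69.7 CPM (68.0 to 71.4), a ratio of 0.466 (0.452 to 0.481). Its cells ran from 0 through a median of 72.6 to 670 CPM in control and from 0 through 35.8 to 361 CPM in RO-3306. The share of cells with a count went the other way, 64% and 79.4% at equal depth. Mrps30 (chr13:118516646-118523788, minus strand) was at 162 and 93.0 CPM, a ratio of 0.574 (0.558 to 0.590), and was lower in all 4 sets. Its median cell was higher in RO-3306, at 83.4 CPM against 55.5, and 26% of its control counts came from 1 cell. Without that cell, CtrlB6, its log2 ratio was -0.46, inside 1.5-fold, where it was -0.79 with it. Without the top cell of each group it was -0.53.

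Other members at the low end did not have 1 sign in all sets. Mrpl39, Mrps31 and Mrpl46, named after their values were seen, had log2 ratios of -1.05, -0.85 and -0.60, and in set D they were at 0.09, 5.37 and 1.23. Mrpl46 and Mrps11 are divergent neighbours on chromosome 7, with spans of 78425089 to 78432837 and 78432879 to 78442736 on GRCm39. Both were lower in the sum, at -0.60 and -0.35, both were below 0 in sets A, B and C, and both were above 0 in set D. Mrpl18 and Mrps34, a large- and a small-subunit protein, were below 0 in all 4 sets by small amounts, at -0.09 and -0.17. With TMM factors both were above 0, at 0.12 and 0.04.

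The docking site for translation factors showed no common direction. Mrpl12, the stalk protein that contacts the elongation factors and also binds the mitochondrial RNA polymerase, was at 409 and 328 CPM, a ratio of 0.801 (0.788 to 0.814). Mrpl10, which anchors Mrpl12 to the ribosome, was at 175 and 145 CPM (0.824, 0.804 to 0.845). Both were above 0 in set B (0.06 and 0.09) and lowest in set D (-1.01 and -1.02). Mrpl11, beside them, was the one called higher.

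Mrpl45, which lies by the exit tunnel and holds the ribosome at the inner membrane, was at 122 and 143 CPM (1.18, 1.15 to 1.21), and its set ratios ran from -0.24 in A to 2.30 in D. Mrpl3, another core protein of the large subunit, was at 66.3 and 74.7 CPM with set ratios from -1.80 in B to 5.30 in D. Mrpl58, a release-factor-like protein that frees stalled chains, was at 183 CPM in both groups, with a ratio of 1.0 (0.979 to 1.03) that hid opposite set values of -0.75 in A and 1.10 in C. These are values of sums and give no sign that holds over the sets.

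In the small subunit, Mrps12, a protein of the decoding centre, was at 138 and 102 CPM (0.74, 0.719 to 0.761), above 0 in set A (0.24) and below it in the others. Mrps7, of the head, was at 198 and 171 CPM (0.862, 0.843 to 0.883), and Mrps2 was at 65.3 and 53.4 CPM (0.819, 0.786 to 0.853) with set values from -1.69 to 2.06. Mrps18b was at 98.9 and 111 CPM (1.12, 1.09 to 1.16). Mrps36, the dehydrogenase subunit, was at 105 and 99.7 CPM (0.948, 0.919 to 0.978). Of these 5, none was called.

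Per kb of mRNA, the most abundant members in the mean of the groups were Mrpl14, Mrpl42, Mrpl28, Mrpl13 and Mrps21. The length is that of 1 transcript per gene, the longest annotated as principal where there is one, and counts cover whole gene spans. The order depends on that choice: Mrps17, at 487 and 435 CPM, ranked 40 with a length of 5061 nt. The first 4 code for large-subunit proteins, of which Mrpl42 is particular to mitochondria, and Mrps21 for a small-subunit protein with a bacterial counterpart. Mrpl14 was at 471 CPM per kb in control and 720 in RO-3306, Mrpl42 at 485 and 597, Mrpl28 at 430 and 535, Mrpl13 at 472 and 423, and Mrps21 at 350 and 488. Thus the first in control was Mrpl42 and the first in RO-3306 was Mrpl14. The log2 ratio of Mrps21 was above 0 in all 4 sets, from 0.26 to 0.72, and so was that of Mrpl28, from 0.12 to 0.98. Mrpl3, among the lower members, had 16.7 and 18.8 CPM per kb.

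The subunits did not stand apart. Large-subunit members summed to 8325 and 9065 CPM (1.09, 1.09 to 1.09) with a median log2 ratio of 0.11. Small-subunit members summed to 3685 and 3944 CPM (1.07, 1.06 to 1.08) with a median of 0.11. The difference of the medians was -0.0049, and under other settings it took either sign, from -0.085 without set C to 0.10 with thinned cells. Within a cell, large over small ran from 1.27 through a median of 2.31 to 3.79 in control and from 1.71 through 2.16 to 4.92 in RO-3306. The highest RO-3306 value was that of TrtdC11, which had 32 members with a count. Large and small sums followed each other across the 37 RO-3306 cells (Pearson 0.70, Spearman 0.47) more closely than across the 29 control cells (0.19 and 0.09). The RO-3306 cells TrtdB3 (2071 and 1019 CPM) and TrtdA11 (2249 and 919 CPM) were the lowest of their group in both sums and weigh heavily in its Pearson value. It was not computed without them. These are descriptions over cells that share 1 treatment and the CPM total, and the difference was not tested.

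Members were also split by the number in the symbol alone, low numbers as having a bacterial counterpart and high ones as particular to mitochondria. Proteins were not compared with those of bacteria, so some members may be misplaced. The 2 kinds by this rule differed slightly in the sum. The first summed to 8009 and 8909 CPM (1.11, 1.11 to 1.12), with a median log2 ratio of 0.17, and 6 of 41 (14.6%) were called higher and 0 lower. The second summed to 4001 and 4100 CPM (1.02, 1.02 to 1.03), with a median of 0.05, and 1 of 33 (3.03%) was called higher and 2 (6.06%) lower. Of all genes, 10.6% were called higher and 8.51% lower, and the difference between the 2 kinds was not tested. In sets A, B and C the median was higher for the first, at 0.04 against -0.24, 0.13 against 0.02 and 0.28 against 0.07. In set D it was lower, at 0.27 against 0.62.

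The groups also differed in how many members a cell showed. After thinning to 639000 counts, which 25 control and 34 RO-3306 cells reached, a control cell had 37 to 74 members with a count (median 56) and an RO-3306 cell 32 to 76 (median 70). Of the RO-3306 cells, 33 of 34 were above the control median, and 3 of 25 control cells were above the RO-3306 median. For the number of all genes found the same counts were 32 of 34 and 4 of 25, so this separation is not particular to the members. Over all pairs of member and cell, 75.5% (73.5% to 77.4%) had a count in control and 89.2% (87.9% to 90.3%) in RO-3306. Over all genes of at least 5 CPM it was 45.5% and 56.4%. Over genes of 50 to 500 CPM with mRNAs up to 2000 nt it was 71.9% and 89.3%, a wider step than that of the 43 members in that range, 82.4% and 94.7%. At full depth the members' difference was 13.8 percentage points, beside 13.6 thinned. The share was 75.5% and 89.6% for the large subunit and 74.9% and 87.9% for the small subunit. The difference lay between 11.9 and 16.7 points whichever set was left out.

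Member by member, 67 of 75 (89.3%) were found in a larger share of RO-3306 than of control cells, against 72.1% of all genes. Over 90% of cells showed 25 members in control and 55 in RO-3306, and under 50% showed 11 and 1. Mrpl24 was in 48% and 91.2% of cells, Mrpl11 in 60% and 100%, and Mrpl2 in 72% and 97.1%. Detection and level were not the same measure. Of the 32 members lower in the RO-3306 sum, 29 were found in a larger share of RO-3306 cells, such as Mrps12 (92% and 94.1%), Mrpl10 (60% and 82.4%) and Mrps2 (56% and 67.6%). Among the 75, the smallest share was that of Mrps31, in 24% and 38.2% of cells, tied in control with Mrps27 (24% and 58.8%).

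**Figure D4:**
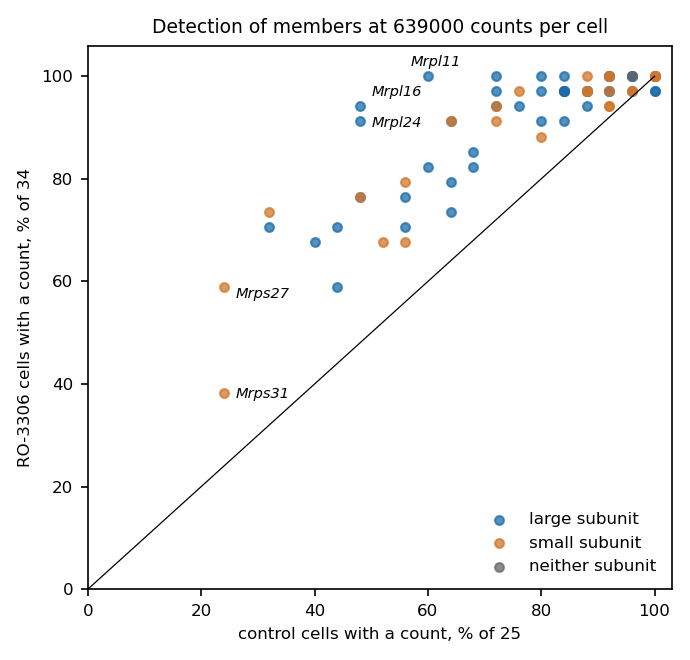
Each point is a member of at least 5 CPM, by the share of 25 control cells (x axis) and of 34 RO-3306 cells (y axis) with a count at 639000 counts per cell, colored by subunit. Points above the diagonal, 67 of 75, were found in a larger share of RO-3306 cells.

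Values were also more even over RO-3306 cells. The coefficient of variation over thinned cells was lower in RO-3306 for 72 of 75 members (96.0%), with a median of 0.963 in control and 0.612 in RO-3306. It was lower for 74.1% of all genes, with medians of 2.07 and 1.65. The median cell was higher in RO-3306 for 58 of 75 members and lower for 16, while the highest cell was a control cell for 52 (69.3%), close to the 66.2% of all genes. For 12 members the median control cell had no count, and for 1 the median RO-3306 cell.

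These shares moved with the number of genes found in a cell. At equal depth the median was 4589 genes in control and 5950.5 in RO-3306 cells, and members and genes found per cell followed each other in both groups (Pearson 0.89 over 25 untreated and 0.89 over 34 treated cells). The same share was also high in genes of like level and length. In those of 50 to 500 CPM with mRNAs up to 2000 nt, 85.7% were found in a larger share of RO-3306 cells, against 88.4% of the 43 members in that range, and the coefficient of variation was lower in 91.1% against 95.3%. The median cell was higher in RO-3306 for 77.5% of these genes and for 77.3% of the 75 members. The number of cDNA molecules captured per cell cannot be read from counts without molecular identifiers, and its part in these values was not tested.

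Other genes for mitochondrial translation were taken from lists of known parts, and the lists did not move alike. In the sum, the further subunits (1.06) and the assembly genes (1.05) were near the members' 1.08. Translation factors and genes for charging tRNAs (0.671) were below 1. The median log2 ratio over genes of at least 5 CPM was below 0 in each list, beside 0.11 for the members. The list's 6 further mitoribosome subunits, which the name rule does not reach, such as Dap3, a small-subunit protein, and Aurkaip1, summed to 867 and 920 CPM (1.06, 1.05 to 1.07), with 0 of 6 called. The highest was Mrps18c, at 173 and 236 CPM, and the lowest Dap3, at 144 and 85.8 CPM. Ratios of Dap3 by set ran from -2.13 to 1.47.

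Of 12 translation factors, 1 (8.33%) was called higher and 1 (8.33%) lower, near the 10.6% and 8.51% of all genes. Their sum was 569 and 397 CPM (0.698, 0.688 to 0.708). Tsfm, which recharges the elongation factor Tufm, was called higher, at 49.4 and 90 CPM. Pdf, which removes the formyl group from new chains, was called lower, at 26.8 and 13.5 CPM. Guf1, a back-translocating GTPase, had the lowest ratio, at 47.1 and 12.2 CPM, found in 10 of 29 and 5 of 37 cells, and it was not called. Genes for charging mitochondrial tRNAs were the synthetases and, with Qrsl1, Gatb and Gatc, the glutamyl-tRNA amidotransferase. Of 19 of at least 5 CPM, 1 (5.26%) was called higher (Ears2, 5.05 and 21.9 CPM) and 1 (5.26%) lower. Ears2 was found in only 5 of 29 and 13 of 37 cells. The one called lower was Lars2, for leucine, at 179 and 33.1 CPM, and every kept cell of either group showed it. Aars2 had the lowest ratio, at 26.5 and 2.2 CPM, from 4 control and 3 RO-3306 cells. Most genes of these lists were low and found in few cells, and their set medians ran up to 2.60 and 2.89 in set C.

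Of 22 genes of at least 5 CPM for assembly of the mitoribosome and modification of its rRNA, 3 (13.6%) were called higher and 0 lower. The shares of all genes were 10.6% and 8.51%. All 24 listed summed to 933 and 975 CPM. Mpv17l2, an assembly factor, was at 50 and 104 CPM, Ngrn at 23.5 and 44.3 CPM, and Mrm1, an rRNA methyltransferase, at 2.82 and 20.3 CPM. Ddx28 had the lowest ratio, at 32.3 and 7.68 CPM. Of 8 genes for mitochondrial transcription and mRNA upkeep, 1 (12.5%) was called higher. It was Slirp, an mRNA-stabilising partner of Lrpprc, at 47.3 and 95.8 CPM, while Lrpprc was at 30.2 and 20 CPM and Twnk, the DNA helicase with the lowest ratio, at 52.2 and 22.3 CPM.

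In the sum, the RNAs that the mitoribosome reads and is built on were higher by more than the mRNAs of its proteins. The 13 mitochondrially encoded mRNAs summed to 27659 and 40977 CPM (1.48, 1.48 to 1.48), with a median log2 ratio of 0.63, and 7 of 13 (53.8%) were called higher against 10.6% of all genes. ATP8 had the highest ratio, at 11.1 and 30.6 CPM, and ND6, the 1 on the other strand, the lowest, at 1209 and 1014 CPM. ATP8 was low beside ATP6 (1367 and 2568 CPM), and reads over 2 gene spans were left out, so its level is uncertain. Counting had no strand option, so reads from either strand could count for ND6. The 12S and 16S rRNAs, mt-Rnr1 and mt-Rnr2, were at 580 and 878 CPM and 4876 and 7489 CPM, and both were called. Per cell the groups lay closer for the rRNAs, with a median cell of 5791 CPM in control and 6436 in RO-3306. For the 13 mRNAs the median cell had 28492 and 37130 CPM. The highest cell had 49635 and 450982 CPM of these mRNAs, and 12391 and 108759 CPM of the rRNAs. In the members' own sets, the mRNA median was above that of the members in all 4, from 0.34 in A to 1.04 in D. SMART-seq v4 primes cDNA on poly(A), so these values are not the rRNA content of a cell.

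Genes of the respiratory chain and of the cytosolic ribosome lay on either side. The 77 nuclear genes for oxidative phosphorylation of at least 5 CPM had a median log2 ratio of 0.22, and all 88 listed summed to 27565 and 30554 CPM (1.11, 1.11 to 1.11). The 79 cytosolic ribosomal protein genes of at least 5 CPM had a median of -0.12, and all 85 listed summed to 59526 and 56726 CPM (0.953, 0.952 to 0.954). Within 1.5-fold lay 83.1% of the first, 93.7% of the second and 81.3% of the members. In each set the order of the 3 medians was cytosolic ribosome, members, oxidative phosphorylation, except in set C, where the members (0.23) were above oxidative phosphorylation (0.21). Across cells, member CPM followed oxidative phosphorylation CPM (Pearson 0.67 over 29 control and 0.73 over 37 RO-3306 cells, Spearman 0.41 and 0.56) and cytosolic ribosomal CPM (Pearson 0.63 and 0.62, Spearman 0.61 and 0.52). All 3 share the CPM total of a cell. Against mitochondrially encoded mRNAs Pearson was 0.51 in control and -0.64 in RO-3306 cells, with Spearman values of 0.52 and -0.04. TrtdB3 and TrtdA11, lowest in member CPM, had the most of these mRNAs (450982 and 123694 CPM) and weigh heavily in the -0.64, which was not computed without them.

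**Figure D5:**
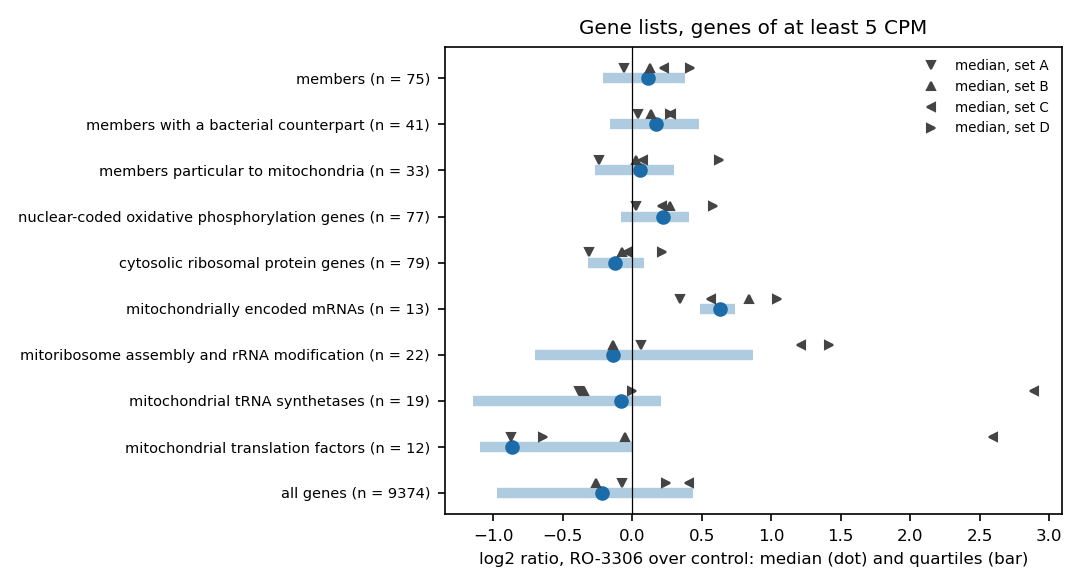
Median log2 ratio (dot) and quartiles (bar) of each list, over genes of at least 5 CPM, with the medians in sets A to D as triangles. The members' 4 set medians lie between -0.06 and 0.41, and those of the 13 mitochondrially encoded mRNAs between 0.34 and 1.04.

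Cell-type markers were checked against the label. Sftpa1, Sftpc and Sftpd, which define alveolar type II cells, had no count in any kept cell, and the 8 markers of that list summed to 23.2 and 24.1 CPM. The 6 epithelial markers, Epcam and Krt18 among them, summed to 1.78 and 0.978 CPM, and the 6 macrophage markers to 58.5 and 61.2 CPM, nearly all of it Cd14 and Lyz2. The 6 mesenchymal markers, led by Vim, summed to 5579 and 2523 CPM, and Col1a1, Col3a1 and Vim were called lower. Thus the defining genes of the labelled cell type were absent or near 0, and mesenchymal genes differed between the groups beside the members. Mitochondrially encoded genes took 3.31% of control and 4.94% of RO-3306 counts. What part these differences have in the members' values was not tested, except that with totals that leave out mitochondrially encoded genes, the log2 ratio of the member sums was 0.14.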

How the data were processed

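Per the file headers, the authors' expected counts for each of the 96 cells came from featureCounts 2.0.3 with the RefSeq genes of GRCm39. Reads were counted over whole gene spans with no strand option, those placed at several sites were split into fractions, and by default those over 2 gene spans are left out. FastQC and STAR are named in the submitters' processing notes, and their versions are not given in the sources used here. Counts hold no molecular identifiers and include PCR copies. File names and headers matched titles in all 96, and no 2 kept libraries held identical values.

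Counts were summed over kept cells and scaled to 1e6 (CPM). Fractional counts were rounded for intervals, thinning and scaling factors only. Sums have exact Poisson intervals, ratios conditional exact binomial intervals and shares Clopper-Pearson intervals, at 95%. Reads are not independent molecules, so all cover counting error only. For detection and coefficients of variation, cells were thinned at random to 639000 counts, percentile 10 of kept totals, which left out 4 control and 3 RO-3306 cells. Each library is 1 sorted cell, and no doublet caller was run. Kept cells by set A to D were 10, 8, 6 and 5 control and 10, 10, 11 and 6 RO-3306. mRNA lengths came by symbol from GENCODE M21 (GRCm38), and no coordinate of that build was joined to the files.

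Members and lists were chosen with earlier results of these data known. Named members are, among those of at least 20 CPM that were found in 25% or more of cells in the group with the higher level and had 1 sign in all sets, up to 8 highest and 8 lowest, the 5 most abundant per kb, a fixed list of 14 for their roles, and in each other list the highest and lowest ratio. Others named were chosen after their values were seen. Alternatives were scaling (TMM of edgeR 4.0.16, DESeq2 1.42.0, R 4.3.3), cell filters, thresholds, mRNA length and sets left out. Other steps used Python 3.11.15, numpy 2.4.6, pandas 2.3.3, scipy 1.17.1 and matplotlib 3.10.9. The call was also run on simulated cells with larger changes than those of the called members and noise drawn separately for each gene. That run therefore gives no error rate for these calls.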

Additional observations from a re-analysis of the deposited data

Results flagged for a closer look

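Some of the libraries left out by the minimum of 50000 counts and 1000 genes held member counts, 12 of 19 in control and 11 of 11 in RO-3306, and their pooled level was higher in RO-3306. The 11 RO-3306 libraries left out had 4718 CPM of members (4594 to 4844), and the 19 control libraries had 2632 CPM (2463 to 2810). In control, 89.6% of these member counts came from 1 library, and in RO-3306 50.3% came from 1. Both values are below the sums over kept cells.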

How the results depend on the processing

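No paired analysis was possible because cells share title letters and numbers but not a culture or batch that the labels name, and no test was run. Medians and the subunit difference were compared with the median half-width of the counting intervals of single members (0.041 on the log2 scale). That is not an interval of the median itself. Other values were compared with their counting intervals (0.0041 for the log2 ratio of the sums) and each count with 1.5 times itself. With TMM and DESeq2 factors the members' median log2 ratio was 0.32 and 0.34, the log2 ratio of the sums 0.32 and 0.35, and 15 and 17 members were called higher, against 14% and 14.6% of all genes. With DESeq2 factors 1 was called lower, against 6.23% of all genes. After thinning, the median was 0.067. The log2 ratio of the sums was 0.13 after thinning, 0.14 with totals without mitochondrially encoded genes, 0.088 as a mean over cells, 0.12 with at least 500000 counts and 2000 genes, and 0.12 without cells above 10% mitochondrially encoded counts, an alternative chosen after seeing the data. It was above 0 in all 13 alternatives. At 2-fold, 0 members were called higher and 1 lower, against 7.23% and 6.43% of all genes, and with no requirement on the sets 5 were called lower, against 36.2%. The large minus small difference was 0.048 as a mean over cells, 0.10 after thinning, -0.074 relative to genes of like mRNA length and 0.069 with subunits by symbol. It was below 0 in 10 and above 0 in 8 alternatives, so it has no direction. Leaving out 1 set at a time, the median ran from -0.024 to 0.23, members called higher from 7 to 16 (all genes from 13.2% to 15.2%) and lower from 2 to 5 (all genes from 10.8% to 15.1%, beside 10.6% and 8.51% with all 4 sets), the log2 ratio of the sums from 0.071 to 0.20, the subunit difference from -0.085 to 0.072, and the difference in the share of member-cell pairs with a count from 11.9 to 16.7 percentage points. That difference stayed above 0 in all 11 alternatives. Of 459 values of the 27 named members, 212 moved by more than their counting interval, and for the 9 called members none changed sign, though calls were lost. Relative to genes of like mRNA length, 3 of the 7 higher calls and 1 of the 2 lower calls were shared, and Mrpl2, Mrpl37, Mrps10 and Mrpl14 were at 0.50, 0.45, 0.39 and 0.35. As a mean over cells 5 and 1 were shared, and after thinning 6 and 1. With sets left out in turn, 5 or 6 of the 7 and both lower calls were shared. The cause of these shifts was not tested. With 1 sample per treatment, depth limits the low members and cell sampling limits all.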
